A study of Mus musculus with 24 samples.

Results

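Astrocyte gene expression was followed in mouse spinal cord through 9 genes, chosen by symbol as known markers of these cells and of their reactive state. Reactive astrocytes are represented by 5 of them, Gfap, Vim, Lcn2, Serpina3n and Cd44, and astrocytes in general by the other 4, Aqp4, Slc1a2, Slc1a3 and Aldh1l1. The files list 38924 genes, of which 17409 had enough counts for testing, and all 9 members passed that filter. RNA came from the whole cord of 24 mice aged 8 weeks, 13 male and 11 female, all labelled with the mixed strain background B6J;CASTxB6.129. The mice fall into 6 genotype groups, of which the series' design text lists only the 4 without Gcn2+/-. Among Gcn2-/- mice, 5 carried the mutant allele Gars P278KY beside a wild-type copy and 3 carried wild-type Gars only. Among Gcn2+/- mice these numbers were 4 and 4, and among Gcn2+/+ mice again 4 and 4. Gars encodes glycyl-tRNA synthetase, in which dominant mutations cause an inherited neuropathy of motor and sensory axons. Gcn2, whose gene symbol is Eif2ak4, encodes a kinase that senses uncharged tRNA and starts the integrated stress response. The labels tie neither allele to a cell type, so an effect on astrocytes and an effect of other cells on astrocytes cannot be told apart. Each library was taken as 1 mouse, which the labels do not state in words. If libraries shared an animal, the p values would measure technical spread.

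Astrocytes clear glutamate and potassium from synapses, move water at blood vessels and supply neurons with metabolites. When neurons are injured or inflamed they become reactive, a state marked by more intermediate filament protein and by secreted acute phase proteins, and driven in large part by the transcription factor STAT3. Whether motor and sensory axon disease and loss of Gcn2 alter this state in the cord is the question that the genotype comparisons address.

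Library totals ran from 19.7 M to 32.4 M expected counts. Eif2ak4 checked the Gcn2 labels, with 11.4 to 15 counts-per-million (CPM, scaled by TMM) in Gcn2-/- libraries, 20.4 to 23.6 CPM in Gcn2+/- libraries and 28.9 to 34.4 CPM in Gcn2+/+ libraries. In 5 libraries (the libraries high in Dcn below) the meningeal fibroblast gene Dcn exceeded 20 CPM, a threshold set after its values were seen. It had 88.3 and 146.6 CPM in 2 Gcn2+/+ libraries with mutant Gars, 23 CPM in 1 Gcn2+/- library with mutant Gars, and 51.8 and 117.6 CPM in 2 Gcn2+/- libraries with wild-type Gars. The other 19 libraries had 7.04 to 11.7 CPM. Schwann cell genes were also high in these 5, with a mean log2 CPM over a list of 14 between 3.86 and 5.91, against 2.11 to 2.91 elsewhere. Peripheral nerve and meningeal transcripts were therefore uneven across the groups compared, and main results that rest on these libraries are given with and without them. Without them, Gcn2+/+ mice kept 2 libraries with mutant and 4 with wild-type Gars, and Gcn2+/- mice kept 3 and 2. Calls lost without them thus also come with smaller groups. Cord glia and neurons were well represented everywhere. The astrocyte gap junction gene Gja1 lay between 340.2 and 516.4 CPM and the neuronal gene Rbfox3 between 106.4 and 137.8 CPM.

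Levels of different genes were compared per length, as transcripts-per-million (TPM). Averaged over the 24 libraries, Gfap, the intermediate filament of astrocytes, was the most abundant member at 1664 ± 355.7 TPM (SD, n = 24). Slc1a2, the main astrocyte glutamate transporter GLT-1, followed at 471.9 ± 30.0 TPM, below Gfap in all 24 libraries. Aqp4, the water channel of astrocyte endfeet, averaged 291.7 ± 54.5 TPM and was below Slc1a2 in 23 of 24 libraries. The middle of the order was crowded. Vim, a filament of reactive astrocytes that fibroblasts, vessels and Schwann cells make too, averaged 88.5 ± 41.1 TPM. Slc1a3, the glutamate transporter GLAST, averaged 67 TPM with an SD of 10 TPM, and Serpina3n, a secreted protease inhibitor, averaged 60.6 ± 17.3 TPM. Aldh1l1, a folate enzyme used as a general astrocyte marker, averaged 42.4 ± 5.17 TPM. Among these neighbours the ranges overlapped, with Vim above Slc1a3 in 19 libraries, Slc1a3 above Serpina3n in 17 and Serpina3n above Aldh1l1 in 22. Cd44, a hyaluronan receptor, averaged 15.4 ± 4.47 TPM and stood below Aldh1l1 in all 24 libraries. Lcn2, a secreted iron-binding lipocalin that neutrophils also make, was barely present at 3.03 ± 1.37 TPM, which rests on 7 to 49 expected counts per library.

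Members differed in steadiness. The CPM of Slc1a2 had a coefficient of variation of 7.09% over all libraries, the smallest of the 9, and that of Aldh1l1 was 11.3%. At the other end stood Vim at 41.9% and Lcn2 at 44.1%. Between them lay Cd44 at 27.3%, Serpina3n at 26.9%, Gfap at 19.5% and Aqp4 at 18.8%. Over the 19 libraries low in Dcn, Vim had 16.2% and Gfap 18.7%, both below Aqp4 at 18.9%, while Lcn2 (43.5%), Serpina3n (26.6%) and Cd44 (26.4%) were the 3 most variable. Transcript use also varied for some members, since the authors' length is weighted by transcript abundance. For Vim it ran from 1488 to 1806 bases and for Cd44 from 3382 to 3880 bases, while Serpina3n and Aqp4, each with 1 annotated transcript, stayed at 2064 and 5082 bases. Serpina3n belongs to a family of near-identical neighbours, and reads shared within it make its separate value uncertain. Its relatives Serpina3g and Serpina3c were listed at no more than 2.2 and 2.55 CPM, against 35.6 to 92.4 CPM for Serpina3n.

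**Figure D1:**
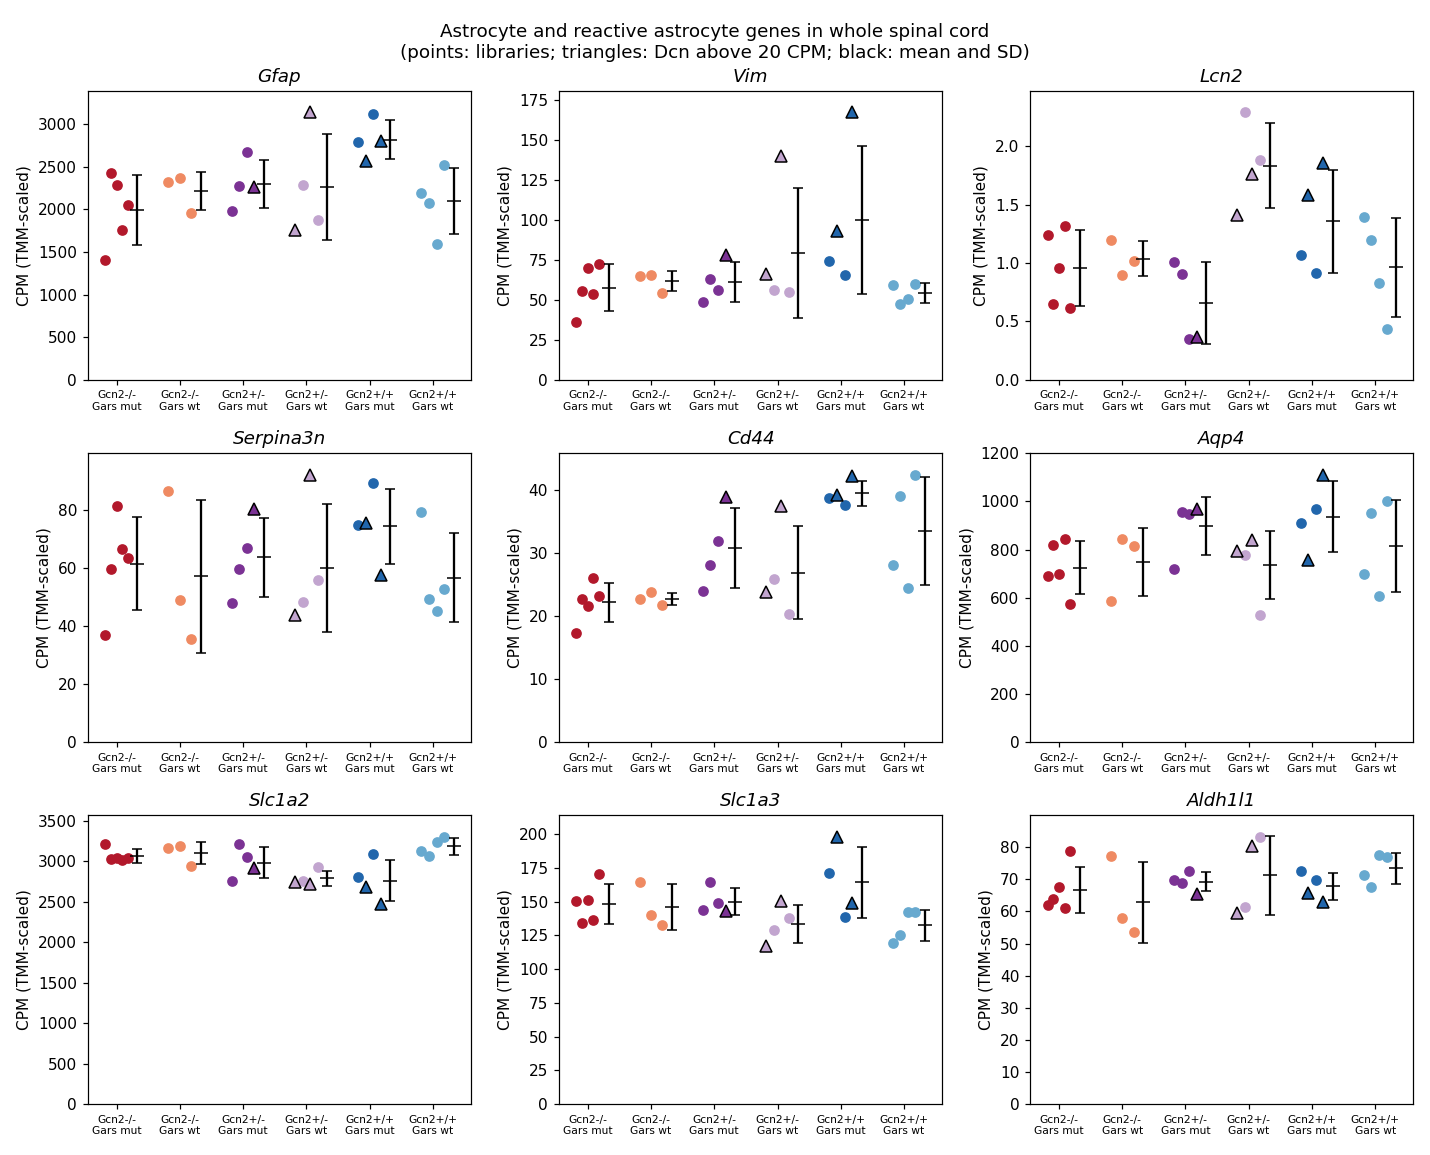
Each panel plots the CPM of 1 gene by genotype group, with 1 point per library, triangles for the 5 libraries with Dcn above 20 CPM, and the group mean and SD in black. Cd44 lies between 17.3 and 26.0 CPM in all 8 Gcn2-/- libraries, and the highest Vim values, 140.0 and 167.0 CPM, are triangles.

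Promoters are shown for 3 genes, Cd44 and Lcn2, which passed a test described below, and Gfap, the most abundant member. Slc1a2 also passed a test, and its promoter is described without its sequence. Each run holds 250 bases before and 50 bases after the RefSeq start site on GRCm38.p6. Both strands were searched for TTCNNNGAA, the pattern bound by STAT dimers, for TGANTCA, bound by AP-1, and for the TATA box TATAAA. A match is in capitals. The windows are chr11:102897151-102897450, chr2:102901616-102901915 and chr2:32387690-32387989, all on the minus strand.
Gfap: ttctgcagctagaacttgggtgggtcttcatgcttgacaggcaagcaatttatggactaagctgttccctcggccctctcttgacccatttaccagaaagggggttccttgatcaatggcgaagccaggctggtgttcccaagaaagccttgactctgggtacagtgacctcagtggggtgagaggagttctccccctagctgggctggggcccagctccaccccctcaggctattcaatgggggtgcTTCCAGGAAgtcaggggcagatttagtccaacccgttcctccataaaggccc
Cd44: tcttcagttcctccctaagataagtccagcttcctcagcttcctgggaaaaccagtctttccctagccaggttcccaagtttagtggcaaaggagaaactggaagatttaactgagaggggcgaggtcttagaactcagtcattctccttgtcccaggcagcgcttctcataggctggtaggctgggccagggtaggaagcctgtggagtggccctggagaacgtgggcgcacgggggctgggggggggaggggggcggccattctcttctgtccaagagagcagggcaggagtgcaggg
Lcn2: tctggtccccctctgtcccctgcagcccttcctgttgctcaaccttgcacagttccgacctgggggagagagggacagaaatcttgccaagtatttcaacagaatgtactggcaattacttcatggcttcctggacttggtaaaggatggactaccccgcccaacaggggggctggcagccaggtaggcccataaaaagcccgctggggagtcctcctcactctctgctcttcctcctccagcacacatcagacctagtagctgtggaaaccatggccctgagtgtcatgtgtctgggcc
Gfap held 1 STAT match, TTCCAGGAA, which begins at position -2 from the start site. None of the 3 patterns was found in the windows of Cd44, Lcn2 and Slc1a2. The Slc1a2 window, chr2:102706188-102706487 on the plus strand, lies well inside the gene, which is annotated from base 102658659. It belongs to an internal RefSeq start site, and the sequence before the annotated gene start was not searched. The windows of Gfap, Vim, Lcn2 and Aldh1l1 also lie inside the annotated spans of their genes. Among members not shown, Slc1a3 also held 1 STAT match, TTCCAAGAA, at position -96, and a TATA match at -161. Vim held a TATA match at -32, while Serpina3n and Aldh1l1 held no match. No window was searched for Aqp4. Among all 32851 promoters of this length, 8.3% held TTCNNNGAA, 7.81% held TGANTCA and 13.6% held TATAAA. The matches are letters only, and binding was not measured.

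With Gcn2 intact, mutant Gars was accompanied by higher readings of several reactive astrocyte genes, but none of the 9 members passed the test. Gfap (chr11:102887336-102900912, minus strand) had 2788, 2564, 3116 and 2806 CPM in Gcn2+/+ mice with mutant Gars, against 2193, 2075, 1599 and 2525 CPM in Gcn2+/+ mice with wild-type Gars. Every mutant library lay above every wild-type library, although the closest pair was only 2564 and 2525 CPM. The log2 fold change was 0.42 ± 0.19 (SE, adjusted p = 0.254). This and every adjusted p of a fold change below is from the quasi-likelihood test of edgeR, adjusted by Benjamini and Hochberg's method for the 17409 genes in the fit. Vim (chr2:13573927-13582826, plus strand) had 74.1, 92.9, 65.4 and 167.0 CPM in the mutants, against 59.1, 47.2, 50.4 and 60.0 CPM in wild types. Here too the groups did not overlap, and the 2 highest values, 92.9 and 167.0 CPM, came from the libraries with 88.3 and 146.6 CPM of Dcn. Its log2 fold change was 0.82 ± 0.33 (adjusted p = 0.207), and 0.35 without the 5 libraries high in Dcn (adjusted p = 0.487). For Gfap the value without those libraries was 0.48 (adjusted p = 0.361). Library titles open with a number whose meaning is not stated. With this title number as a block Gfap was at 0.20 (adjusted p = 0.648). Within the earlier title numbers, which hold 2 mutants and 1 wild type, Gfap was at 0.97 (adjusted p = 0.16), and within the later, with 2 and 3, at 0.14 (adjusted p = 0.865).

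The other reactive members gave smaller or less even differences with Gcn2 intact. Serpina3n (chr12:104406729-104414329, plus strand) had 75.0, 75.8, 89.4 and 57.8 CPM in mutants, against 79.4, 49.5, 45.4 and 52.7 CPM in wild types. The wild-type value of 79.4 CPM exceeded 3 of the 4 mutants, and the log2 fold change was 0.43 ± 0.31 (adjusted p = 0.5), with 1.05 within the earlier and -0.01 within the later title numbers. Lcn2 (chr2:32384633-32388252, minus strand) had 1.07, 1.58, 0.913 and 1.86 CPM in mutants, against 1.39, 1.2, 0.830 and 0.435 CPM in wild types. These groups overlapped, with a log2 fold change of 0.74 ± 0.38 (adjusted p = 0.323). The 2 highest mutant values, 1.58 and 1.86 CPM, came from libraries high in Dcn, and without the 5 libraries the value was 0.21 (adjusted p = 0.858). It was 1.18 with title number as a block, 0.46 within the earlier and 1.30 within the later title numbers. Cd44 had 38.7, 39.2, 37.5 and 42.2 CPM in mutants, against 28.1, 39.0, 24.4 and 42.4 CPM in wild types. The mutants were tightly grouped while the wild types spread across and beyond them (log2 fold change 0.16 ± 0.18, adjusted p = 0.689, and 0.67 within the earlier and -0.08 within the later title numbers).

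Among the general astrocyte genes the glutamate transporters gave values of opposite sign. Slc1a2 (chr2:102658659-102790784, plus strand) had 2803, 2682, 3089.7 and 2472 CPM in Gcn2+/+ mice with mutant Gars, against 3128, 3068, 3240.4 and 3305 CPM in those with wild-type Gars. A single mutant library reached into the wild-type range, and the lowest value, 2472 CPM, belonged to the library with the most Dcn. The log2 fold change was -0.21 ± 0.06 (adjusted p = 0.112), and -0.12 without the 5 libraries high in Dcn (adjusted p = 0.464). Slc1a3 (chr15:8634124-8710764, minus strand) had 171.3, 198.1, 138.5 and 149.3 CPM in mutants, against 119.5, 125.3, 142.0 and 142.3 CPM in wild types. The groups overlapped through the mutant library at 138.5 CPM (log2 fold change 0.32 ± 0.11, adjusted p = 0.152). The highest mutant value, 198.1 CPM, came from a library high in Dcn. Without the 5 libraries the log2 fold change was 0.23 (adjusted p = 0.425). Aqp4, on chromosome 18, had 909.8, 755.5, 969.9 and 1112 CPM in mutants, against 699.7, 950.6, 607.9 and 1001 CPM in wild types (log2 fold change 0.16 ± 0.19, adjusted p = 0.697). Its log2 fold change was 0.18 without the 5 libraries and -0.14 with title number as a block. Within the earlier and the later title numbers it was 0.65 and -0.1. Aldh1l1 (chr6:90486427-90600203, plus strand, 35.41 Mb from Gars) had 72.7, 65.8, 69.7 and 62.9 CPM in mutants, against 71.4, 67.7, 77.5 and 77.1 CPM in wild types (log2 fold change -0.12 ± 0.12, adjusted p = 0.657). Both of these genes overlapped widely between the groups.

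Read as a list, 7 of the 9 members had a log2 fold change above 0 with Gcn2 intact, with a median of 0.32, against 0.01 over all genes tested. The number called was 0 of 9, where 0.632% of all genes were called. At an unadjusted p below 0.05 there were 4 of 9 members, Gfap, Vim, Slc1a2 and Slc1a3, against 17.3% of all genes, and DESeq2 called 1 member, Slc1a2. Gfap and Vim, 2 of 9, were higher with no overlap between groups, a pattern that 4.06% of all genes shared. The count above 0 was again 7, and the median 0.21, without the 5 libraries high in Dcn. In bulk RNA, more astrocytes and more RNA per astrocyte cannot be told apart, nor can fewer cells and less RNA per cell.

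**Figure D2:**
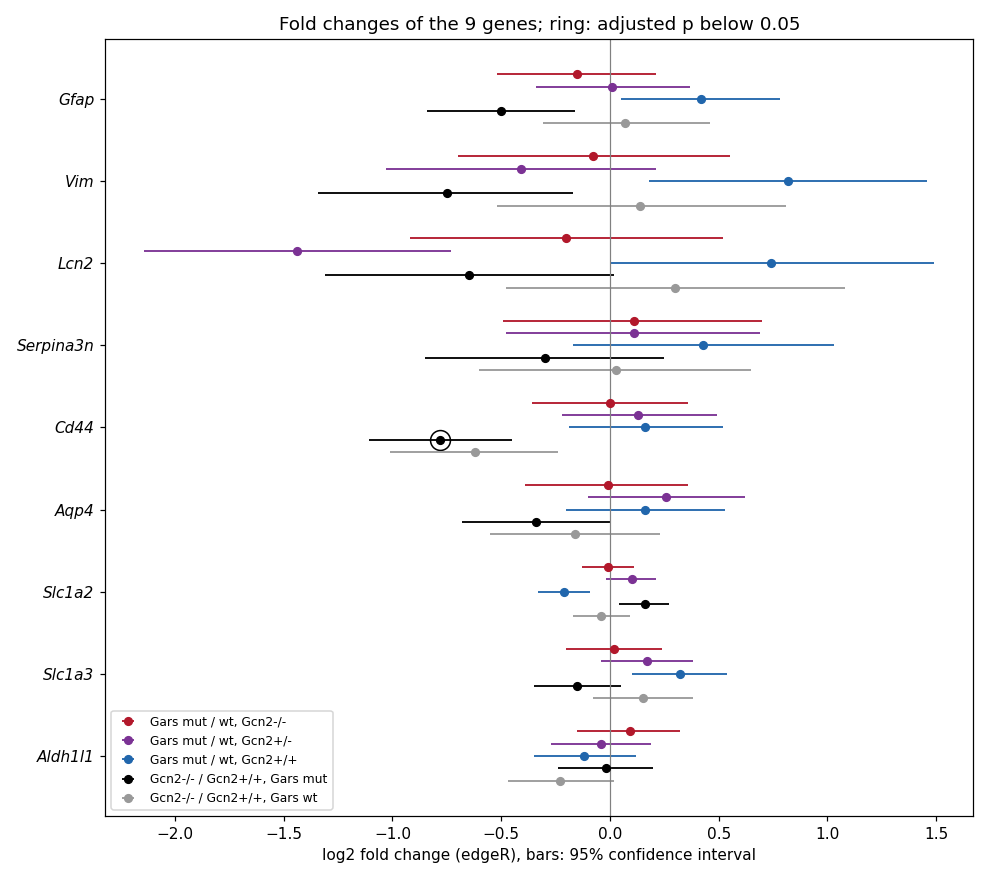
Points are edgeR log2 fold changes of the 9 genes in 5 comparisons, and a ring marks an adjusted p below 0.05. Bars are approximate 95% confidence intervals, taken as 1.96 SE to either side. The single ring is Cd44 in Gcn2-/- over Gcn2+/+ mice with mutant Gars, at -0.78.

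In Gcn2-/- mice the 9 genes gave small differences between mutant and wild-type Gars. Gfap had 1407, 2429, 2291, 1761 and 2057 CPM in Gcn2-/- mice with mutant Gars, against 2321, 2369 and 1956 CPM in those with wild-type Gars (log2 fold change -0.15 ± 0.19, adjusted p = 0.945). Vim had 36.2, 55.3, 69.8, 53.3 and 72.6 CPM in mutants, against 64.9, 65.5 and 54.4 CPM in wild types (log2 fold change -0.08 ± 0.32, adjusted p = 0.986). For both genes the mutants extended to either side of the wild types. Slc1a2 had 3219.9, 3033.5, 3043, 3015 and 3037 CPM in mutants, against 3162, 3189 and 2944 CPM in wild types (log2 fold change -0.01 ± 0.06, adjusted p = 0.99). Lcn2 had 1.24, 0.645, 0.954, 1.32 and 0.618 CPM in mutants, against 1.2, 0.896 and 1.02 CPM in wild types (log2 fold change -0.20 ± 0.37, adjusted p = 0.961). Both genes overlapped between the groups. Serpina3n ran from 36.9 to 81.4 CPM in mutants, against 35.6 to 86.8 CPM in wild types, and Aqp4 from 573.9 to 846.0 CPM in mutants, against 584.3 to 843.3 CPM in wild types. Slc1a3 ran from 133.8 to 170.3 CPM in mutants, against 132.5 to 164.8 CPM in wild types, and Aldh1l1 from 61.2 to 78.9 CPM in mutants, against 53.6 to 77.3 CPM in wild types. The ranges of these 4 genes nearly coincided. Over the 9 members the median was -0.01 and the extremes were -0.20 for Lcn2 and 0.11 for Serpina3n. None was called by edgeR or DESeq2, none had an unadjusted p below 0.05 and none separated the groups, beside 0.0115% of all genes called and 3.83% that did not overlap.

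The difference of these Gars effects between Gcn2-/- and Gcn2+/+ mice was tested directly. It was -0.90 ± 0.47 for Vim (adjusted p = 0.937), -0.95 ± 0.54 for Lcn2 (adjusted p = 0.937), -0.30 ± 0.16 for Slc1a3 (adjusted p = 0.937) and 0.20 ± 0.09 for Slc1a2 (adjusted p = 0.937). No member passed with edgeR or DESeq2, where edgeR called 0.0115% of all genes. At an unadjusted p below 0.05 were 2 of 9, against 4.93% of all genes. Without the 5 libraries high in Dcn the differences were -0.44 for Vim, -0.44 for Lcn2, -0.21 for Slc1a3 and 0.11 for Slc1a2. With all libraries the approximate 95% interval for Vim, taken as 1.96 SE to either side, ran from -1.81 to 0.01.

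Gcn2+/- mice differed from Gcn2+/+ mice in the Gars effect on 2 members, Lcn2 and Slc1a2. Lcn2 had 1.01, 0.909, 0.348 and 0.369 CPM in Gcn2+/- mice with mutant Gars, against 1.41, 2.29, 1.76 and 1.88 CPM in those with wild-type Gars. The groups did not overlap, a pattern of 3.41% of all genes in the lower direction, and the log2 fold change was -1.44 ± 0.36 (adjusted p = 0.123). Set against the 0.74 found with Gcn2 intact (0.21 without the 5 libraries), the difference was -2.18 ± 0.52 and passed the test (adjusted p = 0.0399). Slc1a2 had 2758, 3211, 3056 and 2915 CPM in Gcn2+/- mice with mutant Gars, against 2746, 2757, 2720.4 and 2932 CPM in those with wild-type Gars. Its lowest mutant lay within the wild-type range, and the difference from the effect with Gcn2 intact was 0.31 ± 0.08 (adjusted p = 0.0491).

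DESeq2 also called 2 members, and 3 of 9 had an unadjusted p below 0.05, against 23.4% of all genes. Both calls stand among 3.7% of all genes called by edgeR in that comparison, so 2 of 9 members is above that share but rests on 1 small count and 1 adjusted p just under the threshold. Schwann cell genes differed too. Of 14 on the Schwann list, all had a difference below 0, with a median of -3.54, and 8 were called, against 8 of 13 below 0 and a median of -0.13 without the 5 libraries high in Dcn. Once those libraries were left out, the values were -1.79 for Lcn2 (adjusted p = 0.275) and 0.21 for Slc1a2 (adjusted p = 0.337), and 0 of all genes were called. With single libraries left out, the Lcn2 difference ran from -2.45 to -1.88 with adjusted p between 0.0134 and 0.0979, and its call was lost without any 1 of replicates 2, 3 or 4 of the 4 groups compared. For Slc1a2 the range was 0.26 to 0.37 with adjusted p between 0.0202 and 0.103, and the call was held in 5 of 24 such fits. Lcn2 is also a neutrophil gene, and the 7 tested genes on that list all had a difference below 0 (median -1.01), with Lcn2 the only one called. Without the 5 libraries 3 of the 7 were below 0, the median was 0.22 and none was called. Within Gcn2+/- mice, however, 6 of the 7 were above 0 in mutant over wild-type Gars, and Lcn2 was the exception. The neutrophil granule gene Ngp had 0.542, 0.909, 0.646 and 0.0369 CPM in Gcn2+/- mice with mutant Gars, against 0.638, 0.143, 0.171 and 0.0509 CPM in those with wild-type Gars, where the groups overlapped. The part of these cells in the Lcn2 result was not tested.

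The remaining members gave no call between mutant and wild-type Gars in Gcn2+/- mice. Gfap had 1979, 2279, 2673 and 2263 CPM in mutants, against 1763, 2288, 3138.5 and 1877 CPM in wild types (log2 fold change 0.01 ± 0.18, adjusted p = 0.98). Vim had 48.6, 62.8, 55.8 and 78.0 CPM in mutants, against 66.0, 55.9, 140.0 and 54.9 CPM in wild types (log2 fold change -0.41 ± 0.32, adjusted p = 0.568). The wild-type Vim value of 140.0 CPM came from the library with 117.6 CPM of Dcn. For Vim the log2 fold change was 0.02 without the 5 libraries (adjusted p = 0.984) and 0.56 with title number as a block (adjusted p = 0.809), so its sign was not kept. The Gars effect on Vim differed from that with Gcn2 intact by -1.23 ± 0.44 (adjusted p = 0.0966), and by -0.33 without the 5 libraries high in Dcn (adjusted p = 0.624). Serpina3n ran from 48.0 to 80.5 CPM in mutants, against 44.0 to 92.4 CPM in wild types. Aqp4 ran from 717.8 to 969.7 CPM in mutants, against 528.5 to 840.6 CPM in wild types (log2 fold change 0.26 ± 0.18, adjusted p = 0.526), and 3 of the 4 mutants exceeded every wild type. Slc1a3 ran from 142.9 to 164.2 CPM in mutants, against 116.9 to 150.4 CPM in wild types (log2 fold change 0.17 ± 0.11, adjusted p = 0.464), and Aldh1l1 from 65.4 to 72.6 CPM in mutants, against 59.6 to 83.3 CPM in wild types. These groups overlapped for each of the 4 genes. No member was called by edgeR, where 0.178% of all genes were, and DESeq2 called 1, Lcn2. An unadjusted p below 0.05 was found for 1 member, against 14.7% of all genes.

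**Figure D3:**
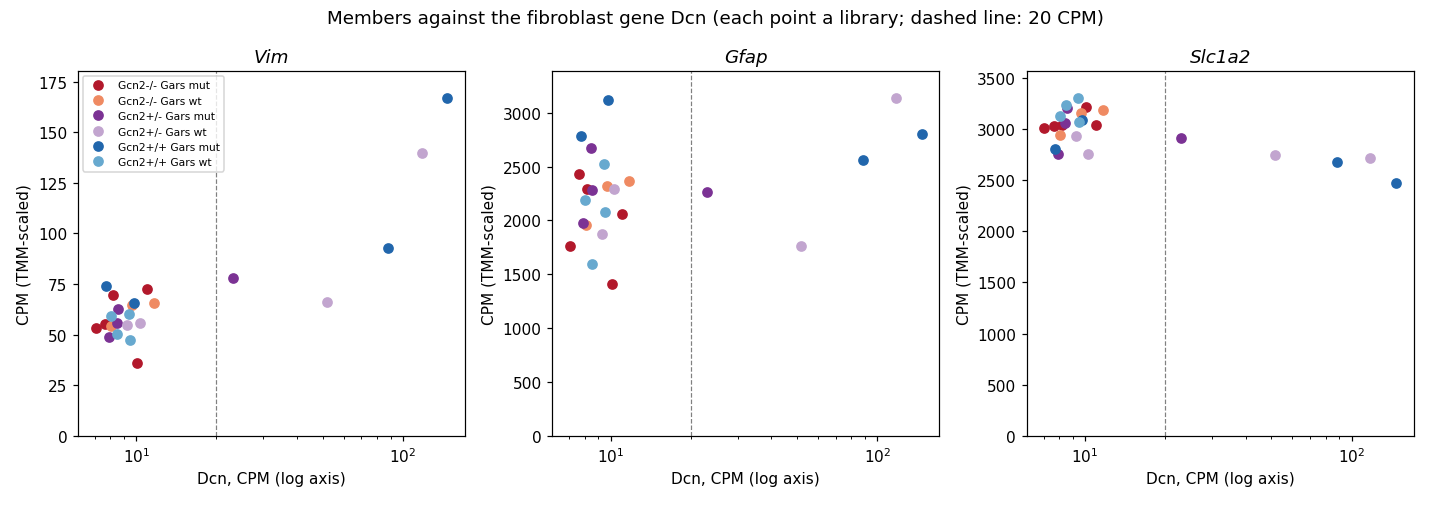
Each point is a library, with the meningeal fibroblast gene Dcn in CPM on a log axis and Vim, Gfap or Slc1a2 in CPM on a linear axis from 0. The 2 highest Vim values, 167.0 and 140.0 CPM, lie at 146.6 and 117.6 CPM of Dcn, and the lowest Slc1a2 value, 2472 CPM, lies at 146.6 CPM.

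Cd44 was the 1 member called between Gcn2 genotypes. Among mice with mutant Gars it had 17.3, 22.6, 21.6, 26.0 and 23.1 CPM in Gcn2-/- mice, against 38.7, 39.2, 37.5 and 42.2 CPM in Gcn2+/+ mice. All 5 Gcn2-/- values lay below all 4 Gcn2+/+ values, with a gap between 26.0 and 37.5 CPM. Cd44 fell, with a log2 fold change of -0.78 ± 0.17 (adjusted p = 0.0382), a level 0.582 times that of Gcn2+/+ mice. That is 1 of 9 members called, where 0.494% of all genes were called. Leaving out the 5 libraries high in Dcn left the size at -0.77 (adjusted p = 0.113), so the fold change was about as large without them while the call was lost. That fit kept only 2 of the 4 Gcn2+/+ libraries with mutant Gars. Leaving out single libraries kept it between -0.83 and -0.72, with the call held in 9 of 24 such fits and adjusted p between 0.00883 and 0.124. It was lost without any 1 of the 9 libraries compared. Within the earlier and the later title numbers it was -0.76 (adjusted p = 0.676) and -0.65 (adjusted p = 0.189).

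Among mice with wild-type Gars the direction was the same. Cd44 had 22.6, 23.7 and 21.7 CPM in Gcn2-/- mice, against 28.1, 39.0, 24.4 and 42.4 CPM in Gcn2+/+ mice. The groups again did not overlap, here with the nearest values at 23.7 and 24.4 CPM, and the log2 fold change was -0.62 ± 0.20 (adjusted p = 0.891). With the earlier title numbers alone it was -0.06 (adjusted p = 1.0), a fit in which 1 Gcn2+/+ library stands for its group and is assumed to vary like the others. Cd44 was the single member lower without overlap, a pattern of 1.94% of all genes, and 0.0287% of all genes were called. No member was called by edgeR or DESeq2 and 1 had an unadjusted p below 0.05, against 3.68% of all genes. The effect of Gcn2 loss on Cd44 differed between mutant and wild-type Gars by -0.16 ± 0.26 (adjusted p = 0.965).

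In mice with 1 Gcn2 copy the mean of Cd44 lay between, and no difference passed the test. With mutant Gars, Cd44 had 24, 28.1, 31.8 and 38.9 CPM in Gcn2+/- mice (log2 fold change from Gcn2+/+ mice -0.33 ± 0.18, adjusted p = 0.497). With wild-type Gars it had 23.8, 25.8, 37.4 and 20.3 CPM in Gcn2+/- mice (log2 fold change -0.30 ± 0.18, adjusted p = 0.393). In each pair the Gcn2+/- values overlapped those of Gcn2+/+ mice, and the highest Gcn2+/- values, 38.9 and 37.4 CPM, came from libraries high in Dcn. Pooled over Gars genotypes as a description, the mean was 22.3 ± 2.47 CPM in Gcn2-/-, 28.8 ± 6.70 CPM in Gcn2+/- and 36.4 ± 6.58 CPM in Gcn2+/+ mice (SD, n = 8 each). All Gcn2-/- comparisons with the same Gars genotype share their Gcn2+/+ controls with the Gcn2+/- comparisons.

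The other 8 members gave no call when Gcn2 was lost. With mutant Gars, Gfap in the 5 Gcn2-/- libraries, listed above at 1407 to 2429 CPM, lay wholly below the 4 Gcn2+/+ libraries at 2564 to 3116 CPM (log2 fold change -0.50 ± 0.17, adjusted p = 0.324). Together with Cd44 that made 2 of 9 members lower without overlap, against 2.09% of all genes. Vim had a log2 fold change of -0.75 ± 0.30 (adjusted p = 0.381), Lcn2 -0.65 ± 0.34 (adjusted p = 0.551) and Aqp4 -0.34 ± 0.17 (adjusted p = 0.545). Slc1a2 was the only member above 0, at 0.16 ± 0.06 (adjusted p = 0.347), and the median of the 9 was -0.34, against 0.00 over all genes. In the same comparison 12 of 14 Schwann genes were below 0, with a median of -1.96, and 16 of 16 meningeal genes, with a median of -2.49. With the 5 libraries high in Dcn left out, the median of the members was -0.27 and 8 of 9 were below 0, while Gfap stood at -0.55 (adjusted p = 0.536), Vim at -0.27 (adjusted p = 0.848) and Lcn2 at -0.08 (adjusted p = 0.985). EdgeR and DESeq2 each called 1 member, Cd44, and 4 had an unadjusted p below 0.05, against 10% of all genes.

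With wild-type Gars the same genes showed no such pattern in Gcn2-/- mice. Gfap had a log2 fold change of 0.07 ± 0.20, Vim of 0.14 ± 0.34 and Aqp4 of -0.16 ± 0.20 (adjusted p = 1.0 for each), and 5 of the 9 were above 0. Loss of 1 Gcn2 copy called 0% of all genes with mutant Gars and 0% with wild-type Gars. With wild-type Gars, DESeq2 called 337 genes, and edgeR called 664 when Gcn2+/+ wild-type library 1 was left out and at most 1 when any other single library was. With mutant Gars no member separated the groups, against 5.9% of all genes in either direction, and edgeR and DESeq2 called none. An unadjusted p below 0.05 was found for 2 members, against 10.9% of all genes. With wild-type Gars 2 members separated the groups, against 6.96% of all genes, and again 2 had an unadjusted p below 0.05, against 17.2%. These were Lcn2, at 1.41 to 2.29 CPM in Gcn2+/- mice against 0.435 to 1.39 CPM in Gcn2+/+ mice (log2 fold change 0.98 ± 0.35, adjusted p = 0.175), and Slc1a2, at 2720.4 to 2932 CPM in Gcn2+/- mice against 3068 to 3305 CPM in Gcn2+/+ mice (log2 fold change -0.19 ± 0.06, adjusted p = 0.145). DESeq2 called Slc1a2 there.

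Cd44 and Slc1a2 are neighbours on chromosome 2, the chromosome of Eif2ak4, at 15.49 and 15.6 Mb from that gene. In a mixed background, sequence of a donor strain can stay linked to a targeted allele. In mice with mutant Gars, 28 of the 327 tested genes within 20 Mb of Eif2ak4 were called between Gcn2-/- and Gcn2+/+, 15 higher and 13 lower, which is 8.56%. On the rest of chromosome 2 the share was 1.6%, and on the other chromosomes 0.251%. Cd44 (chr2:102811141-102901665, minus strand) is 1 of the 13 that were lower. An effect of the kinase and an effect of linked sequence on Cd44 cannot be told apart in this design.

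Within 1 Mb of Slc1a2 or Cd44, 17 genes were tested with both counted, and Cd44 was the only one called. Slc1a2 next to it had 0.16 ± 0.06 with mutant Gars and -0.04 ± 0.07 with wild-type Gars. Pamr1, on the other side of Slc1a2, had -0.30 ± 0.10 with mutant Gars (adjusted p = 0.323). Nat10, an RNA acetyltransferase, was higher in Gcn2-/- mice without overlap in both Gars genotypes, at 0.20 ± 0.09 with mutant and 0.40 ± 0.10 with wild-type Gars (adjusted p = 0.433 and 0.392). Apip, an enzyme of methionine salvage, had 0.32 ± 0.16 with mutant and 0.52 ± 0.19 with wild-type Gars (adjusted p = 0.546 and 1.0). The neighbours of Cd44 thus had values of either sign.

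**Figure D4:**
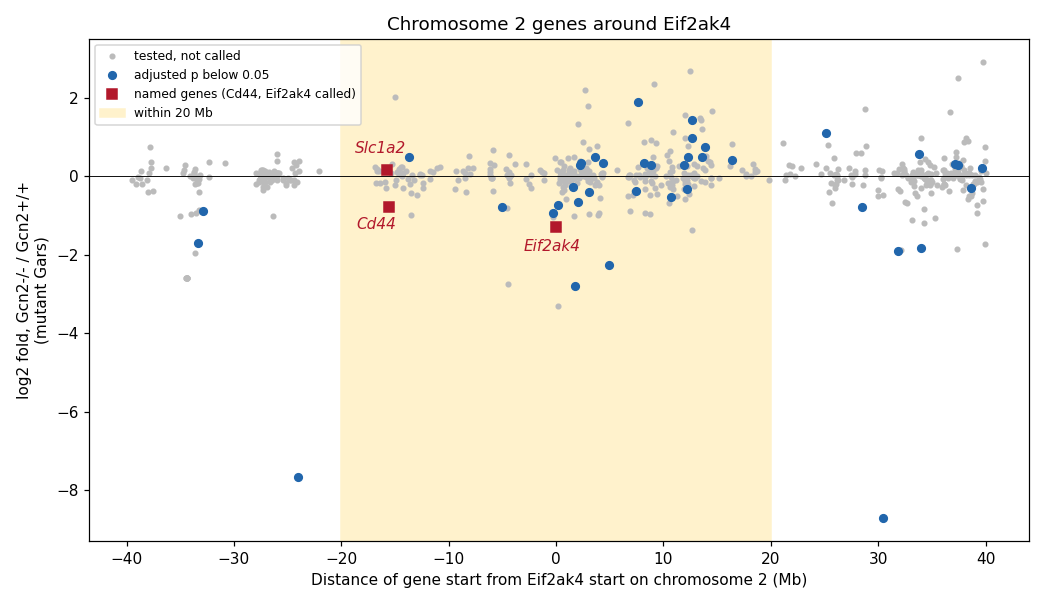
Tested genes on chromosome 2 within 40 Mb of Eif2ak4 are plotted by the distance of their start from that of Eif2ak4 in Mb and by their log2 fold change in Gcn2-/- over Gcn2+/+ mice with mutant Gars, with called genes in blue, 3 named genes as red squares and the band within 20 Mb shaded. Cd44 at -0.78 and Slc1a2 at 0.16 sit side by side near the left end of the band, in which 28 of 327 genes were called.

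The genes whose levels ran most like Cd44 over the 24 libraries were also on chromosome 2. Likeness was the Pearson r of log2 CPM, given as a description with 3 genes per member, and the libraries share depth, strain and genotype. For Cd44 these were Fmn1, an actin nucleator (r = 0.87, chr2:113327736-113716767), 4833423E24Rik (r = 0.87, chr2:85483594-85519024) and Lrp4, a receptor of the nerve and muscle synapse (r = 0.86, chr2:91457511-91513779). Chromosome 2 holds 8.32% of all tested genes. In Gcn2-/- over Gcn2+/+ mice with mutant Gars, Fmn1 fell by 0.78 ± 0.17 on the log2 scale (adjusted p = 0.0366) and 4833423E24Rik by 0.88 ± 0.16 (adjusted p = 0.00638), while Lrp4 had -0.26 ± 0.09 (adjusted p = 0.333).

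Genes most like the other members lay on several chromosomes. Gfap ran with Lcat, an enzyme of lipoprotein metabolism made by astrocytes (r = 0.86), with the actin-binding gene Cnn3 (r = 0.85) and with the receptor gene Notch3 (r = 0.83). Vim ran with the splicing regulator Ptbp1 (r = 0.95), Myl12a (r = 0.92) and Plekhg2 (r = 0.92), and without the 5 libraries high in Dcn these were 0.81, 0.74 and 0.70. Aqp4 ran with Slc30a10, Prkag2 and Aplnr (r of 0.88, 0.88 and 0.87), and Serpina3n with Prdx6, Cmtm7 and Thbs2 (r of 0.79, 0.76 and 0.75). Slc1a2 ran with Tmtc1, Synj1 and Rufy3 (r of 0.82, 0.82 and 0.77), of which Synj1 acts in synaptic vesicle recycling. Slc1a3 was closest to Ddx19a, Krt1 and Ormdl3 (r of 0.81, 0.72 and 0.71), Aldh1l1 to Itpr2, Farp1 and Prodh (r of 0.75, 0.71 and 0.71), and Lcn2 to Lyar, Zfp219 and Lrg1 (r of 0.77, 0.68 and 0.67).

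Among themselves, the members formed 36 pairs, which were correlated over the 19 libraries with Dcn below 20 CPM by permutation tests, two-sided, with p values adjusted over the 36. Of these, 5 pairs passed. Gfap and Vim had r = 0.71 (adjusted p = 0.0134) and rho = 0.67 (adjusted p = 0.036). Gfap and Serpina3n had r = 0.63 (adjusted p = 0.0289) and rho = 0.59 (adjusted p = 0.0803), and Vim and Serpina3n had r = 0.68 (adjusted p = 0.0134) and rho = 0.64 (adjusted p = 0.0503). These 3 reactive genes thus varied together from library to library. Cd44 paired with Gfap at r = 0.65 (adjusted p = 0.0225) and rho = 0.49 (adjusted p = 0.183), and with Aqp4 at r = 0.72 (adjusted p = 0.0134) and rho = 0.79 (adjusted p = 0.0054). After removal of the 2 libraries farthest from the median of the first gene, r was 0.50 for Gfap and Vim, 0.46 for Gfap and Serpina3n, 0.57 for Vim and Serpina3n, 0.57 for Gfap and Cd44, and 0.65 for Cd44 and Aqp4. Within the 10 libraries of earlier title numbers the 5 values ran from 0.68 to 0.74, and within the 9 of later numbers from 0.52 to 0.84. The libraries span 6 genotypes, so shared genotype differences are part of each r. Lcn2 did not run with the filament genes, with r = -0.34 to Gfap and -0.21 to Vim.

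Other reactive astrocyte genes were read from lists written from general knowledge. The general list held 16 genes, of which 15 were tested. With Gcn2 intact, 15 of 15 had a log2 fold change above 0 in mutant over wild-type Gars, with a median of 0.52, against 0.01 over all genes. EdgeR and DESeq2 called none, while 4 had an unadjusted p below 0.05, against 17.3% of all genes. Those with the smallest p were Aspg at 0.79 ± 0.26 (adjusted p = 0.137), the protease inhibitor Timp1 at 1.94 ± 0.73 (adjusted p = 0.182), the copper-binding ferroxidase Cp at 1.35 ± 0.58 (adjusted p = 0.244) and complement C3 at 0.90 ± 0.42 (adjusted p = 0.284). Summed over all 16 genes of the list, the level was 269.8 to 382.7 TPM in the 4 mutants. In the 4 wild types it was 166.1 to 237.4 TPM, with no overlap. Leaving out the 5 libraries high in Dcn gave 13 of 15 above 0 and a median of 0.21.

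Schwann and meningeal genes gave larger values in the same comparison, though edgeR called none on either list. At an unadjusted p below 0.05 were 9 Schwann and 13 meningeal genes, against 17.3% of all genes. DESeq2 called 6 of each list, and 597 genes in all. On the Schwann list 13 of 14 were above 0, with a median of 2.07, and the summed level was 792.9 to 1987 TPM in mutants, against 637.7 to 979.4 TPM in wild types. On the meningeal and fibroblast list 16 of 16 were above 0, with a median of 2.37, and the summed level was 277.9 to 3287 TPM in mutants, against 632.9 to 1116 TPM in wild types. No gene of either list was at 0 in all libraries of a group. These medians were 0.09 and 0.05 without the 5 libraries, where 1 meningeal gene, Ptgds, was called at -1.82 ± 0.31 (adjusted p = 0.0296). Only 2 mutant libraries remained in that fit.

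Vessel wall and neutrophil genes also had values above the median of all genes in the same comparison, with and without the 5 libraries. On the pericyte and smooth muscle list 7 of 8 were above 0, with a median of 0.85. An unadjusted p below 0.05 was found for 5 of the 8, against 17.3% of all genes. Higher without overlap were 4 of the 8, against 4.06% of all genes. The summed level was 140.6 to 292.3 TPM in mutants, against 93.7 to 159.8 TPM in wild types. The smooth muscle myosin gene Myh11 led at 0.83 ± 0.24 (adjusted p = 0.108). Without the 5 libraries 6 of 8 were above 0 and the median was 0.25. Neutrophil genes, with Lcn2 among them, were above 0 in 7 of 7, with a median of 1.75, and 1.47 without the 5 libraries. Their summed level was 9.38 to 37.3 TPM in mutants, against 3.18 to 15.5 TPM in wild types, and 1 had an unadjusted p below 0.05. EdgeR called none on these lists, and DESeq2 called 1 vessel wall gene and 0 neutrophil genes. On the neuronal list 2 of 10 fell, the neurofilament gene Nefl at -0.58 ± 0.07 (adjusted p = 0.000138) and Chat, which makes acetylcholine, at -0.55 ± 0.07 (adjusted p = 0.000377), and both were also called without the 5 libraries. The median of the neuronal list was -0.08. Medians were 0.09 for microglia, 0.03 for endothelium, 0.24 for ependyma and -0.07 for oligodendrocytes, with none called by edgeR. Timp1 and Cp are also made outside astrocytes, and the part of nerve, meningeal, vessel wall and blood cells in the reactive genes was not tested.

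Lists of 2 reactive subtypes followed the general list in sign with Gcn2 intact, but not both did so in Gcn2-/- mice. Of 10 tested genes described for neuroinflammatory astrocytes, 9 were above 0 with Gcn2 intact (median 0.42). For this list edgeR called none, DESeq2 called 1, and 2 had an unadjusted p below 0.05, against 17.3% of all genes. Its leading gene was the complement inhibitor Serping1, also made by fibroblasts, at 2.48 ± 0.78 (adjusted p = 0.13), followed by the interferon-induced GTPase Gbp2 at 0.79 ± 0.36 (adjusted p = 0.266). Of 10 described after ischaemia, 8 were above 0 (median 0.34), with none called by edgeR or DESeq2 and none at an unadjusted p below 0.05, and the cytokine Clcf1 led at 0.34 ± 0.19 (adjusted p = 0.358). Without the 5 libraries both medians were 0.10. In Gcn2-/- mice 8 of 10 neuroinflammatory genes were above 0 in mutant over wild-type Gars (median 0.11). Of the ischaemia genes only 3 of 10 were above 0 there (median -0.22). EdgeR and DESeq2 called none on either list in that comparison.

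In Gcn2+/- mice the signs were reversed, with 14 of 15 genes of the general list below 0 in mutant over wild-type Gars (median -0.49). At an unadjusted p below 0.05 were 7, against 14.7% of all genes, though edgeR and DESeq2 called none. Here it was the wild-type group that held 2 of the libraries high in Dcn. The leading gene was Sox9, an astrocyte transcription factor that is also on the resting astrocyte list below, at -0.46 ± 0.14 (adjusted p = 0.198). Socs3, a feedback inhibitor of STAT3, followed at -0.92 ± 0.29 (adjusted p = 0.205). The Schwann list had 13 of 14 below 0 (median -1.57). With the 5 libraries left out, 9 of 15 reactive genes were below 0 and the median was -0.04. In Gcn2-/- mice, none of whose libraries exceeded 20 CPM of Dcn, 13 of 15 were above 0 with a median of 0.14. An unadjusted p below 0.05 was found for 1, against 4.35% of all genes, and edgeR and DESeq2 called none.

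With Gcn2 intact, resting astrocyte genes stayed near the middle of all genes. Of 26, all tested, 10 were above 0 and the median was -0.04, or 18 and 0.05 without the 5 libraries high in Dcn. With all libraries edgeR called none, DESeq2 called 1, and 3 had an unadjusted p below 0.05, against 17.3% of all genes. The smallest p belonged to Ntsr2, a neurotensin receptor, at 0.31 ± 0.08 (adjusted p = 0.0617), followed by the potassium channel Kcnj10 at -0.19 ± 0.08 (adjusted p = 0.206) and the zinc transporter gene Slc39a12 at -0.22 ± 0.10 (adjusted p = 0.239). In the difference of the Gars effect between Gcn2+/- and Gcn2+/+ mice, Ntsr2 was the 1 resting gene called, at -0.44 ± 0.10 (adjusted p = 0.0399), and Serping1 the 1 neuroinflammatory gene called, at -4.49 ± 1.01 (adjusted p = 0.0399). Summed over the 26 genes the level was 7177 to 8729 TPM in Gcn2+/+ mice with mutant Gars. In those with wild-type Gars it was 7084 to 8390.1 TPM, and these ranges overlapped almost wholly. In Gcn2+/- mice 21 of the 26 were below 0 in mutant over wild-type Gars, with a median of -0.1. EdgeR called none there, and 5 had an unadjusted p below 0.05, against 14.7% of all genes. Lower without overlap were 3, against 3.41% of all genes. Without the 5 libraries 22 were below 0, with a median of -0.14.

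Averaged over the 3 Gcn2 genotypes, the Gars effect was 0.17 ± 0.06 for Slc1a3 (adjusted p = 0.364) and between -0.30 and 0.21 for the others. It called 0 of 9 members with edgeR and with DESeq2, where edgeR called 0.448% of all genes. An unadjusted p below 0.05 was found for 1 member, against 8.92% of all genes. Between the sexes no member was called by edgeR or DESeq2 and none had an unadjusted p below 0.05, against 0.0804% of all genes called, with log2 differences of female minus male from -0.38 ± 0.23 for Lcn2 to 0.16 ± 0.11 for Cd44. The test of any difference among the 6 groups called 0.73% of all genes and no member with edgeR. Cd44 came nearest at an adjusted p of 0.0811. At an unadjusted p below 0.05 were 3 members, against 14.3% of all genes. DESeq2 called 3, Cd44, Slc1a2 and Lcn2, and 883 genes in all.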

How the data were processed

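Whole-cord RNA was selected for poly(A) and sequenced with strand kept, per the labels' protocols, in 24 libraries. The authors deposited an expected count and a TPM value for each gene. Per the submitters' processing notes these came from RSEM, version 1.2.12, with Bowtie2, version 2.2.0. The deposited length column gives the transcript length per gene, weighted by transcript abundance. The genome build and annotation behind the counts are not stated in the sources used here. An expected count divides a read among matching genes, so near-identical genes are uncertain. Of the listed genes, 37607 matched GENCODE M21 (GRCm38), which supplied symbols and positions. Promoters are from RefSeq (GRCm38.p6), matched by symbol.

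Expected counts were rounded to whole numbers and filtered with filterByExpr by group, TMM scaling was applied, and edgeR 4.0.16 (R 4.3.3) gave quasi-likelihood tests. A single fit held 24 libraries, 6 genotype groups and a sex term. It was run on simulated data with less spread than estimated here and no uneven nerve or meningeal tissue. That run therefore does not cover the members with more spread than was simulated, which are Gfap, Vim, Lcn2, Serpina3n, Cd44 and Aqp4. The common biological coefficient of variation was 0.225. Genes with a Benjamini-Hochberg p below 0.05 across the 17409 in the fit count as called. DESeq2 1.42.0 was the alternative tool. Other scalings, no filter, title numbers, a Schwann gene score and libraries left out were tried. Some listed genes are not reported here.

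The members and lists were chosen with earlier results of these data known. Named genes are the members, the called or up to 4 lowest-p members of a list, the 3 genes most like each member, and tested genes within 1 Mb of Cd44 or Slc1a2. Library totals of 19.7 M to 32.4 M leave Lcn2 the least precise member.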

Additional observations from a re-analysis of the deposited data

Results flagged for a closer look

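Among 45 combinations of a member and a group of 4 or 5 libraries, 3 held a library far from the rest, and chance would flag about 1 in 20. Vim was 140.0 CPM in 1 Gcn2+/- library with wild-type Gars, against 66.0 CPM in the nearest of its group, and that library also had 117.6 CPM of the fibroblast gene Dcn. Aqp4 was 717.8 CPM in 1 Gcn2+/- library with mutant Gars, below the other 3, of which the nearest had 948.6 CPM. Slc1a2 was 3219.9 CPM in 1 Gcn2-/- library with mutant Gars, above the nearest at 3043 CPM.

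The Gars effect differed between Gcn2+/- and Gcn2+/+ mice for 2 members by edgeR's interaction test. For Lcn2 the difference was -2.18 on the log2 scale (adjusted p = 0.0399), lower in 4 of 4 Gcn2+/- mutants than in every Gcn2+/- wild type. For Slc1a2 it was 0.31 (adjusted p = 0.0491). The values were -1.79 and 0.21 for Lcn2 and Slc1a2 without the 5 libraries high in Dcn, and neither was called.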

How the results depend on the processing

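The number of members called with mutant over wild-type Gars was 0 in the reported fit. It was 1 with DESeq2 in Gcn2+/+ mice (Slc1a2) and 0 to 1 when single libraries were left out, the 1 arising without Gcn2+/+ mutant library 3. In Gcn2+/- mice it was 1 with DESeq2 (Lcn2). For the difference of the Gars effect between Gcn2+/- and Gcn2+/+ mice, 2 members were called. That count was 1 with upper-quartile scaling, 0 to 2 with single libraries left out, and 0 without the filter on low counts, with title number as a block, with the Schwann gene score, without the 2 mutant libraries high in Schwann genes, without the 5 high in Dcn, within the earlier or the later title numbers, and with only the groups compared. For Gcn2-/- over Gcn2+/+ mice with mutant Gars the count of 1 (Cd44) was 0 to 1 with single libraries left out. It was 0 without the filter, with title number as a block, with the Schwann score, without those 2 or 5 libraries, and within either set of title numbers. Cd44 remained below 0 in all 38 alternatives, from -0.83 to -0.61, and was called in 16. For Gcn2+/- over Gcn2+/+ mice with wild-type Gars DESeq2 called 1 member (Slc1a2). The test over 6 groups called 3 with DESeq2 (Cd44, Slc1a2 and Lcn2) and 0 to 1 with single libraries left out. Values for Vim turned to 0.00 with title number as a block for the Gcn2+/- minus Gcn2+/+ difference, to 0.56 with that block and 0.02 without the 5 libraries for mutant over wild-type Gars in Gcn2+/- mice, and to 0.04 with earlier title numbers for Gcn2-/- and also for Gcn2+/- over Gcn2+/+ mice with mutant Gars. The causes were not tested.

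Counts over all genes moved more. With mutant over wild-type Gars in Gcn2+/+ mice 110 genes were called, 597 with DESeq2, 36 without the 5 libraries and 47 to 600 with single libraries left out. In Gcn2+/- mice 31 were called, 186 with DESeq2 and 4 without the 5. For the difference between these effects 644 were called, 1682 with DESeq2, 0 without the 5 and 0 to 1784 with single libraries left out. For Gcn2-/- over Gcn2+/+ mice with mutant Gars 86 were called, 249 with DESeq2 and 31 without the 5, and over the 6 groups 127, 883 and 44. For Gcn2+/- over Gcn2+/+ mice with wild-type Gars 0 were called, 337 with DESeq2 and 0 to 664 with single libraries left out. The counts of 600, 1784 and 664 all arose without Gcn2+/+ wild-type library 1.

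The exclusion of the 5 libraries was chosen after seeing the data. No paired analysis was possible because replicate numbers only follow accession order. Title numbers, shared by up to 6 libraries in several groups, were fitted as a block instead, with the values given above. Lcn2, at 7 to 49 counts per library, is limited by depth.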
